A study of Mus musculus with 2 samples.

Results

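Skeletal muscle sarcomere genes were examined in cultured mouse cartilage cells before and after stretching. The 37 genes encode the proteins of the contractile unit of skeletal muscle, those that hold it in place, release its calcium or fuel it, and the transcription factors Myod1 and Myog. A gene was taken in when a probe other than a control carried a RefSeq transcript accession of it, and its brightest probe stood for it. All 37 had a probe, out of 20660 genes named in this way. RNA came from primary chondrocytes, cells isolated from cartilage and grown in a dish, of 6-day-old C57BL/6J mice. They had been seeded in fibronectin-coated silicon chambers 48 h earlier. The array called before loading held RNA taken ahead of any stretch, and the other held RNA taken 24 h after cyclic tensile strain at 0.5 Hz and 10% elongation for 30 min. Since 1 array stood for each time, no replicate error can be given, no test was run, and the small number of arrays sets the precision. Cells kept unloaded for the same 24 h were not analysed here, so the stretch cannot be told apart from the added time in culture. The questions are which sarcomere genes could be detected in chondrocyte cultures at all, and whether those detected moved together.

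In striated muscle, myosin heavy chains with their light chains form the thick filaments, which pull on thin filaments of actin. Troponin C, I and T sit on the thin filament and let myosin bind only when calcium is present, and the calcium is stored in and released from the sarcoplasmic reticulum. Most of these proteins come in fast, slow, cardiac and developmental versions encoded by separate genes. Cartilage is not known as a contractile tissue, and chondrocytes build a matrix of type II collagen and aggrecan and use non-muscle actin and myosin.

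The promoters of 5 genes are shown, chosen for the values of these genes on the arrays. Myh8, Tnnc2 and Myl3 were the detected genes that changed more than 2-fold. Myl1 and Mylpf encode the 2 light chains of fast muscle myosin, of which the first was detected and the second was not. Each window runs 5′ to 3′ from 250 bases before the RefSeq start of the gene to 50 after it, on assembly GRCm38.p6, and capitals mark E-boxes (CANNTG), the letters bound by MyoD family factors and by many other factors of their class. They lie at chr11:67276874-67277173, forward strand (Myh8), chr2:164779685-164779984, reverse strand (Tnnc2), chr9:110763428-110763727, forward strand (Myl3), chr1:66945007-66945306, reverse strand (Myl1), and chr7:127211358-127211657, forward strand (Mylpf).
Myh8: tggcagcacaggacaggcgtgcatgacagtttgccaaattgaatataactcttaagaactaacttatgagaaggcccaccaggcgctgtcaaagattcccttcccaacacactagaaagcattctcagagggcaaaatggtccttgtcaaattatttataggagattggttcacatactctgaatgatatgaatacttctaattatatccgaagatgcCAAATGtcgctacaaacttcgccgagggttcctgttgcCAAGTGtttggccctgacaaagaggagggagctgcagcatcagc
Tnnc2: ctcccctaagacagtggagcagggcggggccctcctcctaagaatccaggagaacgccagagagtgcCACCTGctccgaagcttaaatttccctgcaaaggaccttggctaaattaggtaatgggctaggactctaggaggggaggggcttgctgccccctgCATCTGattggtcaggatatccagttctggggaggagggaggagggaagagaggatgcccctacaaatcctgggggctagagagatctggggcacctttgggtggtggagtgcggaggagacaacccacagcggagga
Myl3: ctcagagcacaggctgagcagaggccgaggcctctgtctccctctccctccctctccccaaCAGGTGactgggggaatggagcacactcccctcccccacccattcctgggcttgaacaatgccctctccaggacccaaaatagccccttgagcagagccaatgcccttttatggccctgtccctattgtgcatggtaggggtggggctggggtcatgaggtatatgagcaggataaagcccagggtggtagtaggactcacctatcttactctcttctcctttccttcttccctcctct
Myl1: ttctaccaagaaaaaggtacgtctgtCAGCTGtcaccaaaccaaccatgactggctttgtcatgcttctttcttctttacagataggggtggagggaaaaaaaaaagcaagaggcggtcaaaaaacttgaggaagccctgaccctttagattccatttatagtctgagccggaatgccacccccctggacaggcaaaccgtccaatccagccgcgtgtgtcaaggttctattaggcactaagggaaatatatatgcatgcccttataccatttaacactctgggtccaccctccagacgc
Mylpf: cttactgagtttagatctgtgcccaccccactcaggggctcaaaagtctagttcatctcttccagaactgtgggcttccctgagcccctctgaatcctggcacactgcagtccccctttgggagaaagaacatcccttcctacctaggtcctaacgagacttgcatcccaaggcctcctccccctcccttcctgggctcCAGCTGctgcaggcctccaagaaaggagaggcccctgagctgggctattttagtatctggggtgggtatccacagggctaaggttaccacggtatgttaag
Myh8 held E-boxes at -32 and 6, counted in bases from the start to the first base of the motif, and Tnnc2 held them at -183 and -88. Myl3, Myl1 and Mylpf each held 1 E-box, at -189, -224 and -51. All 5 windows held an E-box, as did 72.1% of the promoters of 27025 genes. Whether E-boxes bear on detection or change was not tested.

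Of the 37 promoters, 30 were in the RefSeq table. Those of Actn3, Myod1, Myoz1, Neb, Tcap, Tnni2 and Tnnt3 were not matched. Both strands were searched. At least 1 E-box was found in 25 of the 30 (83.3%), against 72.1% of the promoters of 27025 genes. The MCAT motif (GGAATG), bound by TEAD factors, was in 9 (30%, against 14.6%), and the letters TATAAA were also in 9 (30%, against 14.2%). A MEF2 site, which can share its A and T letters with TATAAA, was in 6 (20%, against 3.26%), and a CArG box, the site of serum response factor, was in 5 (16.7%, against 1.57%). Among the 19 promoters of genes detected on both arrays, 17 held an E-box, 3 a MEF2 site and 4 a CArG box, and among the other 11 the numbers were 8, 3 and 1. These are matches of letters and not measured sites.

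Values are the intensities that the scanner software processed, and a scaled level is the log2 of that intensity minus the 75th percentile of its array, which lay at 466.37 before loading and 466.15 at 24 h. A gene is called detected when more than 50% of the spots of its probe were well above background on both arrays. Log2 ratios are 24 h minus before loading, and the error beside each joins the software's errors on the 2 arrays. It covers within-array error only. Levels of different probes are not compared with each other, because probes differ in brightness.

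A majority of the sarcomere genes gave a signal in the chondrocyte cultures. Of the 37, 23 (62.2%) were detected on both arrays, against 68.9% of all 20660 genes. A further 3 (Casq2, Mb and Myoz1) were well above background before loading only, 2 (Myh1 and Neb) at 24 h only, and 9 on neither array (Myh2, Myh4, Mylpf, Actn2, Casq1, Ryr1, Des, Ckm and Myod1). Of the 23 detected genes, 5 had a mean above the 75th percentile of the arrays (Myl1, Myl4, Acta1, Tnnc2 and Tnni2) and 18 had a mean below it.

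**Figure D1:**
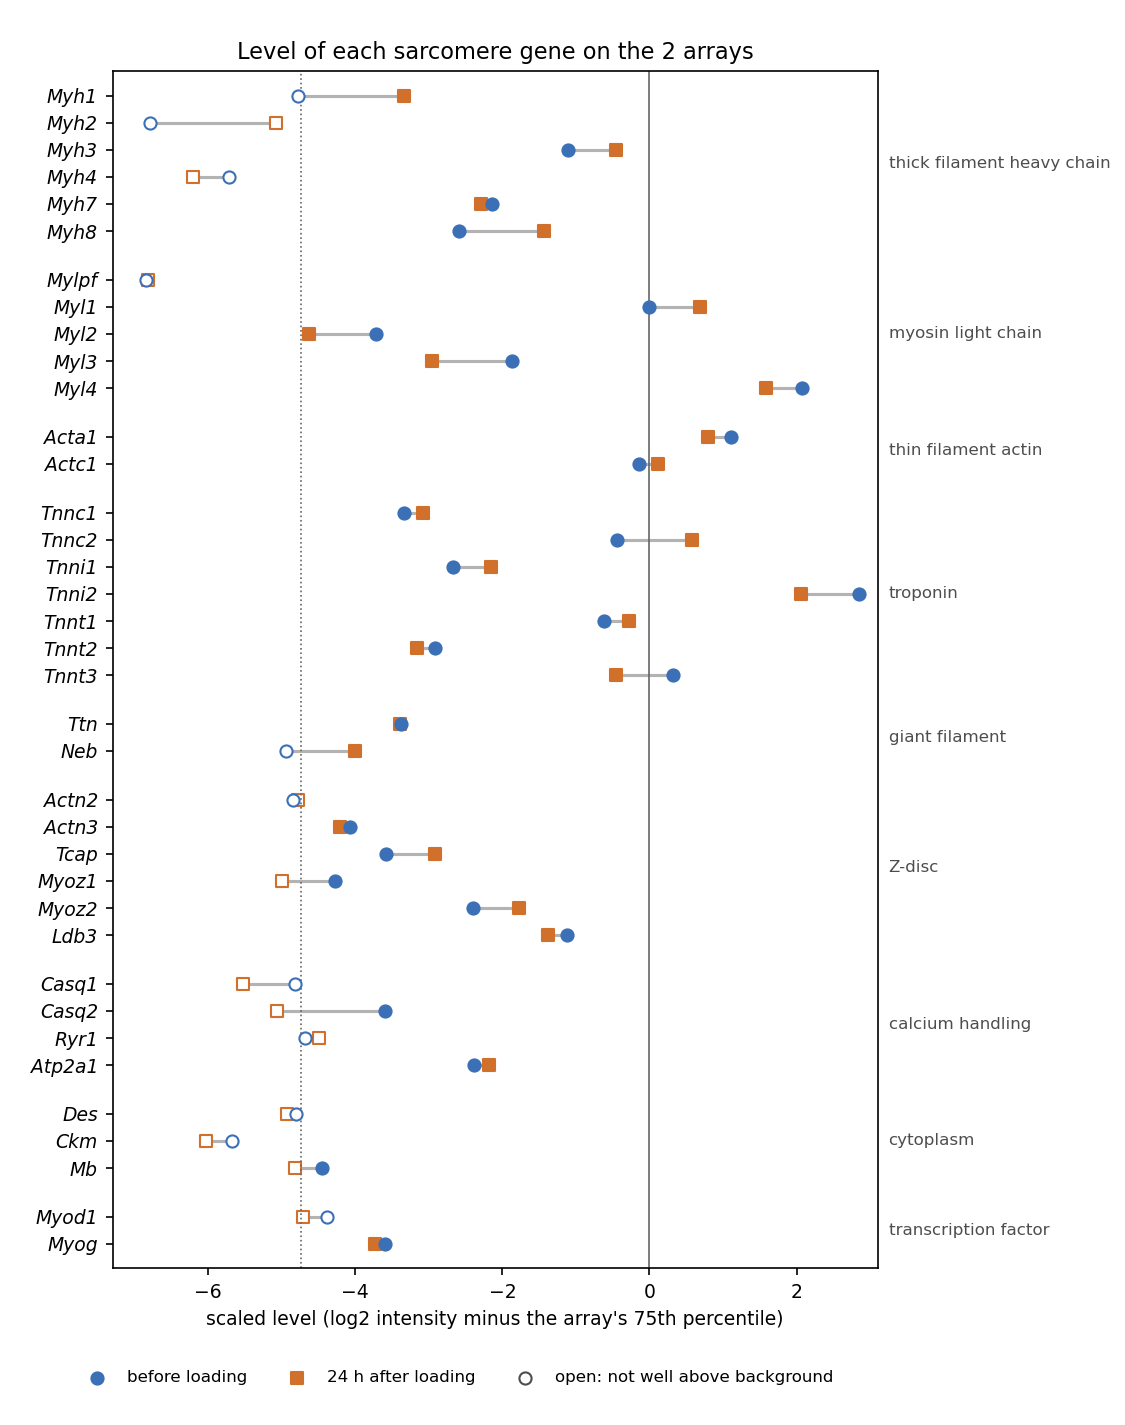
Scaled level (log2 intensity minus the 75th percentile of the array) of the brightest probe of each of the 37 genes, before loading (circles) and 24 h after (squares), grouped by role. Open symbols were not well above background, the dotted line is the mean over both arrays of the lowest level that was, and the solid line is the 75th percentile: 23 genes have both symbols filled, and 9 have both open.

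The detected genes did not move together. Myh8 and Tnnc2 were more than 2-fold higher at 24 h, against 0.668% of all 14231 detected genes, and Myl3 was more than 2-fold lower, against 1.83%. Among the 5667 detected genes with a mean below the 75th percentile, the group in which most sarcomere genes lay, these shares were 1.2% and 3.23%. A log2 ratio above 0 was found for 11 genes and below 0 for 12. Their median was -0.02, and that of all detected genes was -0.01. The ratios ran from -1.08 to 1.15, with an interquartile range of 0.86, against 0.36 over all detected genes and 0.47 over those below the 75th percentile. A difference of more than 2 within-array errors was found upward in 7 genes, against 7.24% of all detected genes, and downward in 5, against 9.12%. At a looser limit of 1.5-fold, 6 genes were higher, against 3.65% of all detected genes, and 4 were lower, against 5.84%. In 6 genes the ratio was smaller than its within-array error, against 8137 of all 14231 detected genes. None of the 3 changes past 2-fold passed it by 2 within-array errors, as 23 higher and 95 lower genes did among all detected genes. All 3 came inside 2-fold with another background correction (normexp), which gave 0.63 for Myh8, 0.89 for Tnnc2 and -0.62 for Myl3. Over all detected genes, normexp gave 38 genes more than 2-fold higher in place of 95, and 117 lower in place of 260. Myl3 also came inside 2-fold when the arrays were scaled by their medians or by the spike-in controls.

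**Figure D2:**
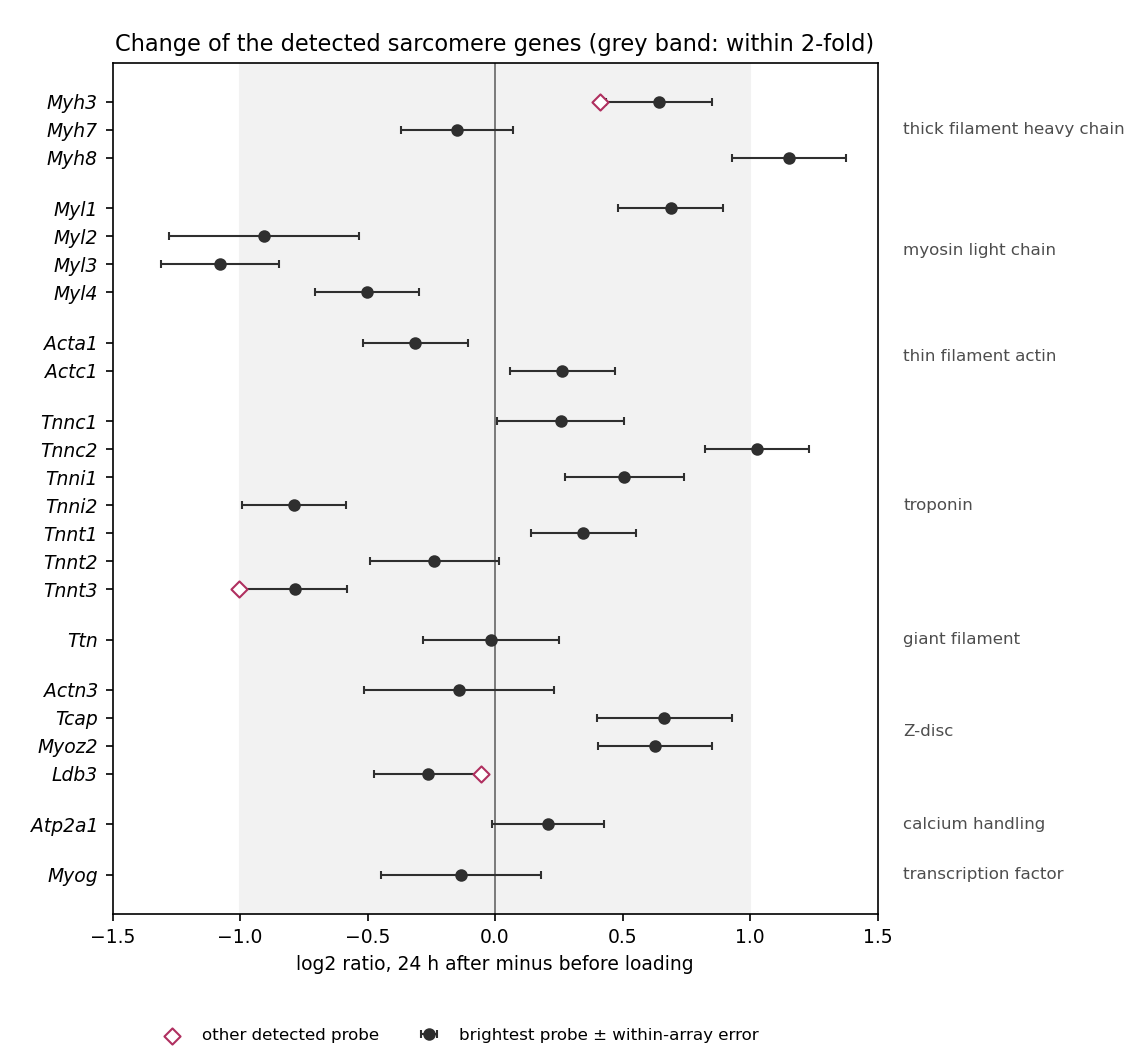
Log2 ratio (24 h after minus before loading) of the 23 detected genes, grouped by role, with bars of 1 within-array error and diamonds for other detected probes of the same gene. Myh8 and Tnnc2 lie to the right of the grey band of 2-fold, Myl3 lies to its left, and ratios on both sides of 0 occur among the light chains, actins, troponins and Z-disc genes.

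Among the myosin heavy chains, those of developing muscle gave signal at both times. Myh8, the perinatal heavy chain, had an intensity of 77.4 before the stretch and 172 after it, or scaled levels of -2.59 and -1.44. This is 2.22-fold higher, a log2 ratio of 1.15 (error 0.22), and the widest upward difference among the 23 genes. It rests on 1 probe, since a second probe of Myh8 (7.21 and 4.02) cleared background on neither array. Myh3, the embryonic heavy chain, had 217 before and 339 at 24 h, or -1.10 and -0.46 scaled. Its log2 ratio was 0.64 (error 0.21), and 0.41 on its second probe. Myh7, the heavy chain of slow muscle and heart, had 106 and 95.3, or -2.14 and -2.29 scaled, and its log2 ratio of -0.15 was smaller than its error of 0.22.

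The heavy chains of adult fast fibres were near or below background. Myh1, the fast type IIx chain, was not well above background before loading (17.1) and was so at 24 h (46.1), which makes it at least 2.67-fold higher. That bound sets the 24 h signal against the lowest intensity well above background, 17.3 before loading. The limit differed between spots, and intensities of up to 24.1 before loading and 24.9 at 24 h were not called. Against 24.1, Myh1 was 1.91-fold higher. Myh2 and Myh4, the type IIa and IIb chains, did not clear background on either array, with intensities of 4.23 and 13.8 for Myh2 and 8.83 and 6.29 for Myh4. On chromosome 11 the RefSeq table lists these genes one after the other in the order Myh3, Myh2, Myh1, Myh4 and Myh8, so the pair detected on both arrays holds the first and last places among these 5. The files hold no probe sequences, and cross-hybridisation between such related genes was not tested.

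The myosin light chains went both ways. Myl3, the essential light chain of slow muscle and ventricle, had 127 before loading and 60.2 at 24 h, or -1.87 and -2.95 scaled. It was 2.11-fold lower, a log2 ratio of -1.08 (error 0.23). Myl2, the regulatory light chain of slow muscle and ventricle, was also lower, with 35.3 and 18.9 (-3.72 and -4.63 scaled) and a log2 ratio of -0.91 with an error of 0.37. Its 24 h signal was close to the lowest intensity well above background on that array, 17.8, and the ratio was -0.40 with normexp correction.

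Myl1, which encodes the essential light chains of fast muscle, had 466 and 750, or 0.00 and 0.69 scaled, with a log2 ratio of 0.69 (error 0.20), and a second probe of it (18.2 and 20.2) was not detected. Myl4, the essential light chain of embryonic muscle and of the atrium, had 1972 and 1392, or 2.08 and 1.58 scaled, with a log2 ratio of -0.50 (error 0.20). Both stood above the 75th percentile on average, and their differences from 0 were more than 2 errors in opposite directions. Mylpf, the regulatory light chain of fast muscle, had 4.06 and 4.13 and cleared background on neither array. Whether its probe responds to muscle RNA was not tested.

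The sarcomeric actins differed little between the arrays. Acta1, the actin of adult skeletal muscle, had 1001 and 806 (1.10 and 0.79 scaled) and a log2 ratio of -0.31. Actc1, the cardiac actin that is also made in developing skeletal muscle, had 423 and 507 (-0.14 and 0.12 scaled) and a log2 ratio of 0.26. The within-array error of each was 0.20, so both ratios were between 1 and 2 errors from 0, and they had opposite signs.

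All 7 troponin genes were detected on both arrays, where 68.9% of all 20660 genes were. Among the groups by role, no other with over 2 members was detected in full. Tnnc2, the calcium-binding subunit of fast muscle, had 342 before loading and 697 at 24 h, or -0.45 and 0.58 scaled. It was 2.04-fold higher, a log2 ratio of 1.03 (error 0.21). Its partners in the fast complex were lower. Tnni2, the inhibitory subunit of fast muscle, had 3348 and 1940 (2.84 and 2.06 scaled) and a log2 ratio of -0.79 (error 0.20). Tnnt3, the fast subunit that binds tropomyosin, had 585 and 339 (0.33 and -0.46 scaled) and a log2 ratio of -0.78 (error 0.21), and its second probe was 2.01-fold lower. The genes of the fast complex thus stood on opposite sides of 0, each by more than 2 errors.

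The slow troponins all had log2 ratios above 0, though smaller ones. Tnni1, the slow inhibitory subunit, had 73.5 and 104 (-2.67 and -2.16 scaled) and a log2 ratio of 0.51 (error 0.23). Tnnt1, the slow tropomyosin-binding subunit, had 304 and 386 (-0.62 and -0.27 scaled) and a log2 ratio of 0.35 (error 0.21). Tnnc1, the calcium-binding subunit of slow muscle and heart, had 46.0 and 55.0 (-3.34 and -3.08 scaled) and a log2 ratio of 0.26 (error 0.25). Tnni1 exceeded 2 errors and Tnnt1 and Tnnc1 did not. Tnnt2, the cardiac tropomyosin-binding subunit, which is also made in embryonic skeletal muscle, had 61.5 and 52.2 (-2.92 and -3.16 scaled) and a log2 ratio of -0.24, within its error of 0.25.

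Tnni2 and Tnnt3 lie close together on chromosome 7, with only Lsp1, a gene of an actin-binding protein of leukocytes, between them in the gene order. Lsp1 was lower too, with a log2 ratio of -0.38 (error 0.20). On the other side of Tnni2, Syt8, which encodes a synaptotagmin, had 861 and 191, a log2 ratio of -2.17 (error 0.21). The next genes outward differed less or were higher, with 0.41 for Ctsd (cathepsin D) beyond Syt8 and 0.04 for Mrpl23 (a mitochondrial ribosomal protein) beyond Tnnt3. This stretch was looked at after the values of Tnni2 and Tnnt3 had been seen. Tnni1 and Tnnt2 are neighbours of the same kind on chromosome 1, with Lad1 between them, and their log2 ratios had opposite signs (0.51 and -0.24).

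The giant proteins that span the sarcomere were dim. Ttn, whose product titin links the Z-disc to the thick filament, had 45.0 and 44.5 (-3.37 and -3.39 scaled). Its log2 ratio of -0.02, with an error of 0.27, was the one that changed sign under other settings, all 5 of them scalings or background correction. Its 3 other probes cleared background on neither array. Neb, whose product nebulin runs along the thin filament, was not well above background before loading (15.1) and was so at 24 h (28.9), at least 1.67-fold higher (1.20-fold against 24.1), and its second probe did so on neither array.

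At the Z-disc, the plate that anchors the thin filaments, 4 of 6 genes were detected. Myoz2, which encodes the slow and cardiac calsarcin that binds calcineurin, had 88.6 and 137 (-2.40 and -1.77 scaled) and a log2 ratio of 0.63 (error 0.23). Tcap, whose product telethonin caps titin, had 39.1 and 61.9 (-3.58 and -2.91 scaled) and a log2 ratio of 0.66 (error 0.27), but 0.22 with normexp correction. Ldb3, whose product holds the Z-disc together under load, had 215 and 179 (-1.12 and -1.38 scaled), with log2 ratios of -0.26 (error 0.21) and -0.05 on its 2 probes. Actn3, the alpha-actinin of fast fibres, had 27.8 and 25.2 (-4.07 and -4.21 scaled) and a log2 ratio of -0.14 (error 0.37). Only Myoz2 and Tcap exceeded 2 errors, both upward. Myoz1, the fast relative of Myoz2, was well above background before loading (24.2) and not at 24 h (14.6), at least 1.36-fold lower against 17.8, with no fold against 24.9. Actn2, the alpha-actinin of all fibre types and of heart, had 16.2 and 17.0 and cleared background on neither array.

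Of the genes that store and move calcium, 1 of 4 was detected on both arrays. Atp2a1, the calcium pump of fast fibres, had 89.1 and 103 (-2.39 and -2.18 scaled) and a log2 ratio of 0.21, within its error of 0.22. Casq2, the calcium-storing calsequestrin of slow fibres and heart, was well above background before loading (38.6) and not at 24 h (13.9). This makes it at least 2.17-fold lower, or 1.55-fold against 24.9. Its fast counterpart Casq1 had 16.5 and 10.1, and Ryr1, the calcium release channel, had 18.1 and 20.6, both short of the rule on each array.

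The 3 genes of the muscle cytoplasm gave little signal. Ckm, the muscle creatine kinase that buffers ATP, had 9.12 and 7.11. Des, which encodes the muscle intermediate filament desmin, had 16.6 and 15.4, and the spots above background were 1 of 7 before loading and 0 of 7 later. Both genes missed the rule for detection on each array. Mb, the oxygen carrier myoglobin, was well above background before loading (21.4) and not at 24 h (16.6), at least 1.20-fold lower against 17.8, with no fold against 24.9.

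The transcription factors that switch on the muscle programme were close to the limit of detection. Myog, the gene of myogenin, which acts as myoblasts fuse, had 38.5 and 35.1 (-3.60 and -3.73 scaled), and 10 of its 10 spots were well above background on each array. Its log2 ratio of -0.13 was within its error of 0.31. Myod1, which commits cells to the muscle lineage, had 22.2 and 17.8, and 4 of its 9 spots were well above background on each array, short of the majority required.

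**Figure D3:**
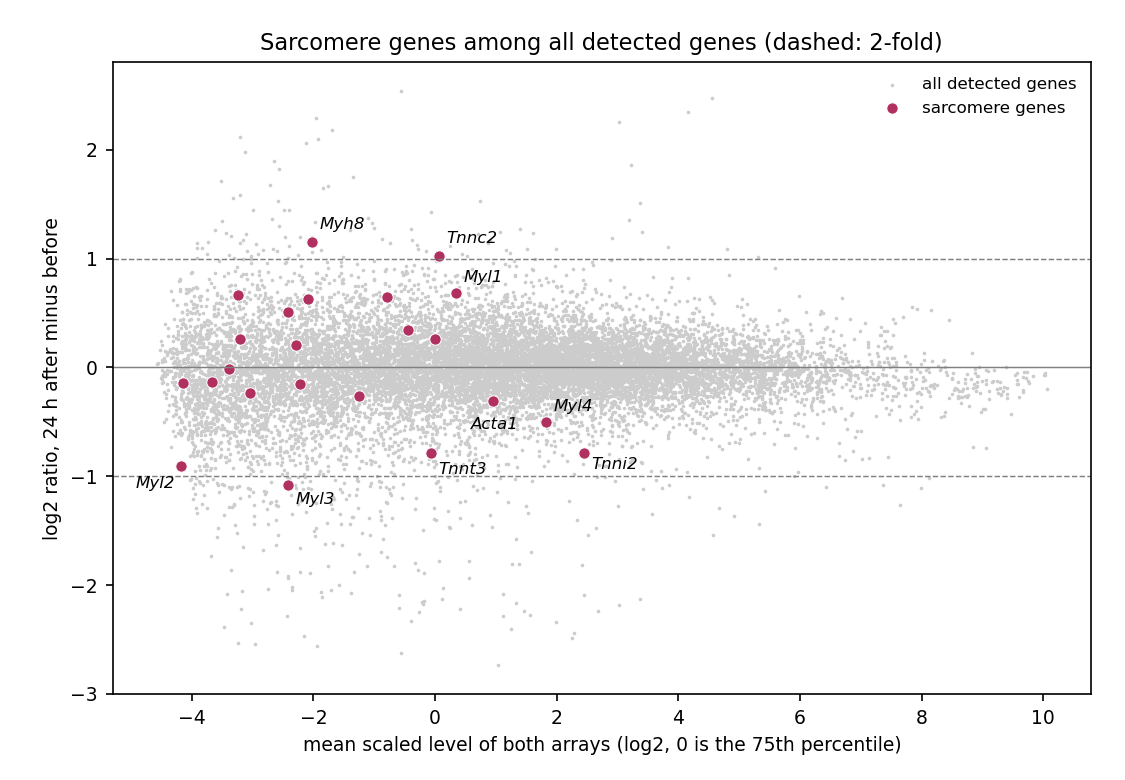
Log2 ratio (24 h after minus before loading) against the mean scaled level of both arrays (log2), for all 14231 detected genes (grey) and the 23 detected sarcomere genes (red), with dashed lines at 2-fold. The sarcomere genes lie from the dim left edge to the middle of the range and on both sides of 0, between -1.08 and 1.15, and 5 have a mean above the 75th percentile.

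The genes were also grouped by fibre type, a grouping made after the values had been seen. Of 12 genes typical of fast fibres, 6 were detected, with 3 ratios above 0 and 3 below and a median of 0.03. Of 8 genes typical of slow fibres, of heart or of both, 7 were detected, with 4 above 0 and 3 below and a median of 0.26. All 5 genes typical of embryonic, perinatal or cardiac muscle (Myh3, Myh8, Myl4, Actc1 and Tnnt2) were detected, with 3 above 0 and 2 below and a median of 0.26. Over all 20660 genes, 68.9% were detected. No group had all its ratios on 1 side of 0.

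Other muscle genes were detected in part as well. In a list of 53 other genes of the sarcomere and the muscle fibre with a probe, 32 were detected on both arrays. This was 60.4%, against 68.9% of all 20660 genes, and the median log2 ratio of the 32 was -0.03. Of these, 1 was more than 2-fold higher and 0 were lower. The one was Sln, whose product sarcolipin restrains the calcium pump that Atp2a1 encodes. Its intensity was 41.7 before loading and 147 at 24 h, a log2 ratio of 1.82 (error 0.24), or 1.03 with normexp correction. The lists overlap in part. Tpm1, Tpm2, Tpm3 and Actn1 of this list are counted again below among the genes of non-muscle cells. Myh6, Myl7 and Tnni3 are counted again among the cardiac genes.

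Of 26 genes of myogenic progenitors and myoblasts, 17 were detected (65.4%, against 68.9% of all genes), with a median of 0.03. Of the 26, 3 (Des, Myod1 and Myog) are also among the 37. Of the list, 9 cleared background on neither array, among them Pax7 (7.18 and 4.63) and Myf5 (4.14 and 4.20). Pax7 and Myf5 mark satellite cells and early myoblasts. The 17 detected on both arrays included Pax3 (40.7 and 51.8), Cdh15 (39.3 and 42.3) and Mymk (251 and 245). Pax3, Cdh15 and Mymk were likewise listed as markers of myogenic progenitors and myoblasts, so markers of these cells fell on both sides of detection. The only change past 2-fold was that of Itga7, the laminin-binding integrin of muscle, with 439 and 904.9, a log2 ratio of 1.04 (error 0.20), or 0.89 with normexp correction. The summed intensity of this list was 10678 before loading and 11900 at 24 h, and that of the 37 sarcomere genes was 9959 and 8532. Such sums follow the brightest probes. Without Tnni2 the sarcomere sum was 6611 and 6592, and without Dag1, which encodes dystroglycan, the myogenic sum was 7949 and 8375. Whether muscle cells were present in the cultures was not tested, and in RNA from a whole culture fewer cells of a type and less RNA per cell cannot be told apart.

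Markers of the labelled cell type were present. All 16 chondrocyte genes listed, among them Col2a1, Acan and Sox9, were detected on both arrays with a mean above the 75th percentile and a median log2 ratio of 0.08, and 0 changed more than 2-fold. A list of non-muscle counterparts held genes of actin, alpha-actinin, myosin, tropomyosin, a calcium pump, a calcium release channel and creatine kinase. Of its 19 genes with a probe, 18 were detected, with a median of 0.07 and 0 past 2-fold. The one not detected was the release channel Ryr2 (9.47 and 5.15), which is also in the cardiac list. The sarcomere genes had a wider spread of ratios (SD 0.62) than these non-muscle counterparts (SD 0.26), all 18 of which had a mean above the 75th percentile. Over all detected genes the SD was 0.31 for those with a mean above the 75th percentile and 0.46 for those below it. Among the sarcomere genes it was 0.79 for the 5 above and 0.59 for the 18 below. In the lists of other muscle genes it was 0.47 (muscle fibre) and 0.42 (myogenic), and 0.32 in the chondrocyte list. The macrophage list had 0.60, smooth muscle and myofibroblast 0.48, tendon 0.46, cardiac 0.35 and endothelial 0.19, each over few detected genes.

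Markers of other cell types were detected in varying shares, beside 68.9% of all 20660 genes. Detected were 4 of 10 cardiac genes (median 0.21), 8 of 10 smooth muscle and myofibroblast genes (median -0.31), 5 of 5 tendon genes (median 0.21), 2 of 5 endothelial genes (median 0.09), 4 of 4 macrophage genes (median 0.02) and 1 of 5 erythroid genes (-0.12). In the smooth muscle and myofibroblast list, 4 of the 8 detected genes were lower by more than 2 within-array errors and 0 were higher. Over all detected genes these shares were 9.12% and 7.24%. The 4 were Acta2 (log2 ratio -0.51), Actg2 (-0.87), Tagln (-0.57) and Synpo2 (-0.72, or -0.30 with normexp correction). Acta2 and Actg2 are actins of smooth muscle, Tagln an actin-binding protein and Synpo2 a partner of actin. The other detected genes were Cnn1 (-0.11), Smtn (0.15), Mylk (0.30) and Myl9 (0.35). The tendon genes went both ways, with 0.51 for Fmod and -0.44 for Scx. Of the cardiac genes, Tnni3 and Myl7, which encode the troponin I of heart and a light chain of the atrium, cleared background on neither array, while Myh6 (23.6 and 30.8), a cardiac heavy chain, Nppa (115 and 117), Nppb (47.6 and 37.5) and Tbx5 (803 and 1061) did so on both. The only change past 2-fold in these lists was Ptprc, the leukocyte surface protein CD45, at a dim probe (20.9 and 46.1, log2 ratio 1.14, error 0.35), with 0.40 after normexp correction. The part of other cell types in the sarcomere signals was not tested.

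**Figure D4:**
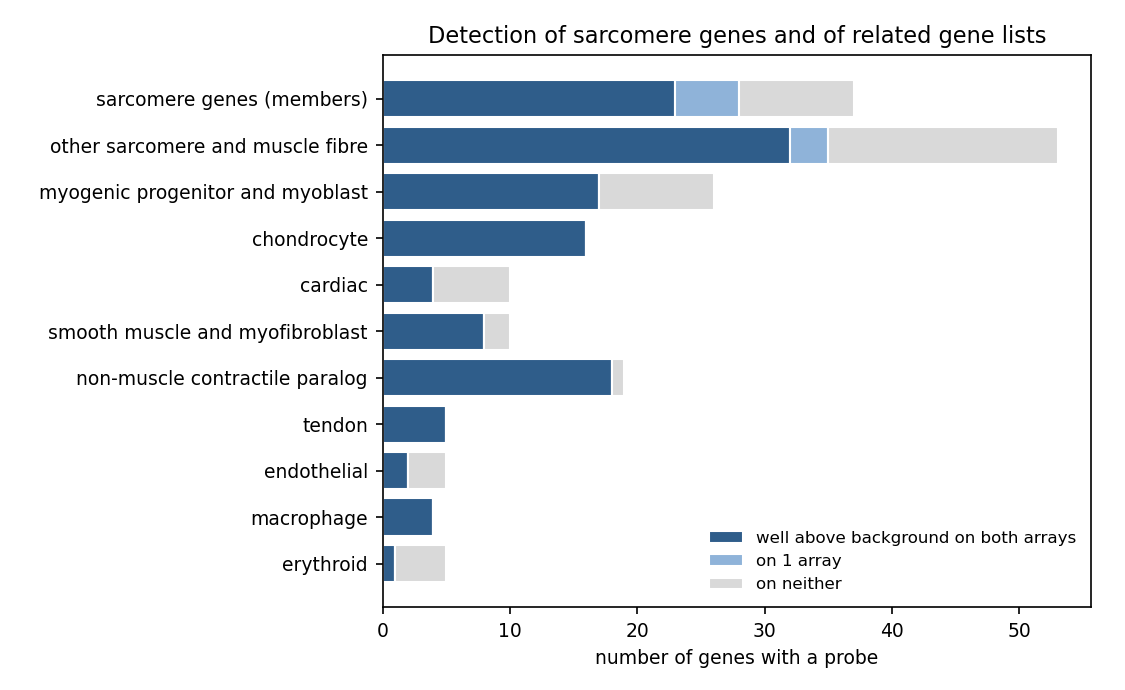
Number of genes with a probe (horizontal axis) that were well above background on both arrays (dark), on 1 array (light blue) or on neither (grey), for the 37 sarcomere genes and for each related list. Chondrocyte, tendon and macrophage genes were all detected. The sarcomere genes (23 of 37), the other muscle fibre genes (32 of 53) and the myogenic genes (17 of 26) were detected in part. Over all 20660 genes, 68.9% were detected on both arrays.

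The position of the spots on the array was checked as well. Within 100 µm of each spot there was a median of 28 other spots. None of the 23 detected sarcomere genes had 3 or more such neighbours that were well above background and changed more than 2-fold in 1 direction, a condition that held for 0.309% of all detected genes. Of the 37 genes, 30 had 1 probe and 7 had several. In the 3 genes with a second detected probe (Myh3, Tnnt3 and Ldb3) the log2 ratios of the probes differed by 0.21 to 0.23 and had the same sign.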

How the data were processed

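Gene expression was measured in mouse primary chondrocytes on 2 one-colour Agilent arrays of 1 slide, 1 before loading and 1 at 24 h after loading. The authors deposited spot intensities after background subtraction by Agilent Feature Extraction 10.10.1.1, per the submitters' processing notes, without normalization between arrays. Their value table differs from these intensities by at most 0.497%.

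Each array held 59305 spots other than controls, of which 59.14% (before) and 57.66% (24 h) cleared background and 0 were saturated. Outlier spots (141 and 138) were left out and spots of a probe averaged. Log2 intensities over 55678 probes were set relative to the 75th percentile of their array. Accessions were named through a RefSeq table of GRCm38.p6 (27235 probes matched). The table's gene order was used, and its coordinates were not, since the files give positions on another build. Promoter windows and their coordinates come from a separate RefSeq promoter table. The 37 genes, the related lists and the motifs were chosen with earlier results of these data known. Every one of the 37 is named, and of other lists the genes past 2-fold, with further genes added after their values were seen. A total of 14 alternatives were planned and 2 were added after seeing the data, using limma 3.58.1 (R 4.3.3) and pandas 2.3.3 (Python 3.11.15).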

Additional observations from a re-analysis of the deposited data

How the results depend on the processing

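No paired analysis was possible because each group holds 1 array, and no replicate could be left out. The number of genes detected on both arrays was 23, and 35 when a signal only had to be positive and significant. Over all 20660 genes these counts were 14231 and 16624. Of the genes more than 2-fold higher (2), 0 remained past the limit with normexp correction or when the change had to exceed 2-fold by 2 within-array errors, while 4 were counted with no detection filter and 6 at 1.5-fold. Of the genes more than 2-fold lower (1), the count was 0 with median scaling, spike-in scaling, normexp and the error allowance, 2 with detection on at least 1 array, with positive and significant signal, with no filter and with the dimmest detected probe, and 4 at 1.5-fold. Over all detected genes 95 were higher, against 38 with normexp, 23 with the error allowance, 492 with no filter and 520 at 1.5-fold. Lower were 260, against 205 with median scaling, 186 with spike-in scaling, 117 with normexp and 95 with the error allowance. The 3 looser filters gave 507, 616 and 983 lower genes in the order named, the dimmest probe 278 and 1.5-fold 831. The cause of these shifts was not tested, except that looser filters add dim probes and a lower threshold adds genes by construction.

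The median log2 ratio (-0.02) was 0.082 with median scaling, 0.070 with quantile normalization, 0.073 with loess, 0.103 with spike-in scaling, 0.076 with normexp, -0.075 with detection on at least 1 array, -0.13 with positive and significant signal and -0.11 with no filter. Median and spike-in scaling moved the median of all detected genes from -0.01 to 0.08 and 0.10. Of 230 values of single sarcomere genes under other settings, 6 moved by more than the within-array error, and 22 of 23 genes kept their sign in all settings run for them, the exception being Ttn. The normexp correction used the median spot signal, since the files hold no mean. Background limits the dim genes, since no probe with a mean under 17.3 (before) or 17.8 (24 h) counted as well above it. With the highest intensity that was not called as the limit, chosen after seeing the data, the bound was 1.91-fold for Myh1, 1.20-fold for Neb and 1.55-fold for Casq2, and none could be given for Mb and Myoz1.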
